A study of Mus musculus with 6 samples.

Results

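The genes described here are 9 genes that define Sertoli cells or carry their hormone signals: Sox9, Sox8, Wt1, Gata4, Fshr, Amh, Inha, Inhbb and Rhox5. They were chosen by name, all 9 were found among the 53700 gene identifiers of the count tables, and all 9 were among the 21902 genes with enough reads to be tested. RNA of whole testes was sequenced from 3 biological replicates labelled Msl3 wild type (WT) and 3 labelled as floxed conditional knockouts of Msl3 (cKO). All were taken at postnatal day 45 and have the strain label Msl3em1Forni/C57BL/6J. No treatment is named. The recombinase line, and so the cells in which Msl3 would be deleted, is not given in the sources used here.

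Sertoli cells are the somatic cells of the seminiferous tubule that enclose and nourish germ cells. SOX9, with SOX8 as a partly redundant relative, WT1 and GATA4 set up and hold their identity. Pituitary follicle-stimulating hormone (FSH) acts on them through its receptor FSHR and cyclic AMP, and testosterone acts on them too, with Rhox5 as a classical androgen-responsive gene. In return they secrete inhibin B, a dimer of the Inha and Inhbb products that restrains FSH release, and anti-Müllerian hormone (AMH), which is abundant before puberty and low in the adult.

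None of the 9 genes passed the test of cKO against WT. The 4 transcription factor genes had log2 fold changes between 0.14 and 0.26, toward higher levels in cKO, and the 5 genes of hormone signalling had values between -0.05 and 0.13. After a correction for GC content and transcript length these ranges overlapped. Sox9, Sox8, Wt1 and Gata4 then had 0.21, 0.11, 0.12 and 0.093. Rhox5, Fshr, Inha, Inhbb and Amh had 0.15, 0.098, 0.034, 8.8e-05 and -0.089. The lowest adjusted p, that of Sox9, was 0.288 (edgeR quasi-likelihood test, Benjamini-Hochberg adjustment over all genes tested). The count was 0 of 9 at an adjusted p of 0.05 with edgeR, where 0.0183% of all genes were called. DESeq2 left the adjusted p of Amh and Fshr undefined and called 0 of the other 7, beside 209 of 11711 genes. At an unadjusted p under 0.05 edgeR gave 2 of the 9, Sox9 and Wt1, both higher. Of all genes it gave 13.9% in either direction and 7.33% higher. DESeq2 gave 1 (Sox9), and its share of all genes at this p is not given here. The groups did not overlap for Sox9 and Wt1, against 18.9% of all genes in either direction, of which 2201 were higher and 1938 lower. The median log2 fold change of the 9 genes was 0.13, and that of all tested genes was 0.00. The median of the 9 was 0.075 without WT 2 and 0.078 without cKO 1. Of the 9, 8 had a value above 0, against 50.7% of all genes.

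The libraries held 56991431 to 73766444 reads assigned to genes. Msl3 itself had 16.9 ± 1.68 CPM (SD, n = 3) in WT and 15.6 ± 0.649 CPM (SD, n = 3) in cKO, so its count over the whole gene did not check the labels, and the groups are named by them throughout. Levels in CPM are reads divided by a library size that was scaled with the trimmed mean of M values (TMM). Markers of germ cells and of the somatic cells of the testis were present in every library. Of 8 markers of the rete testis and ducts, Cdh1 and Epcam had enough reads to be tested, while Pax8, Krt19, Krt7, Lcn5, Crisp1 and Cdh16 had 0 to 12 reads in a library.

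**Figure D1:**
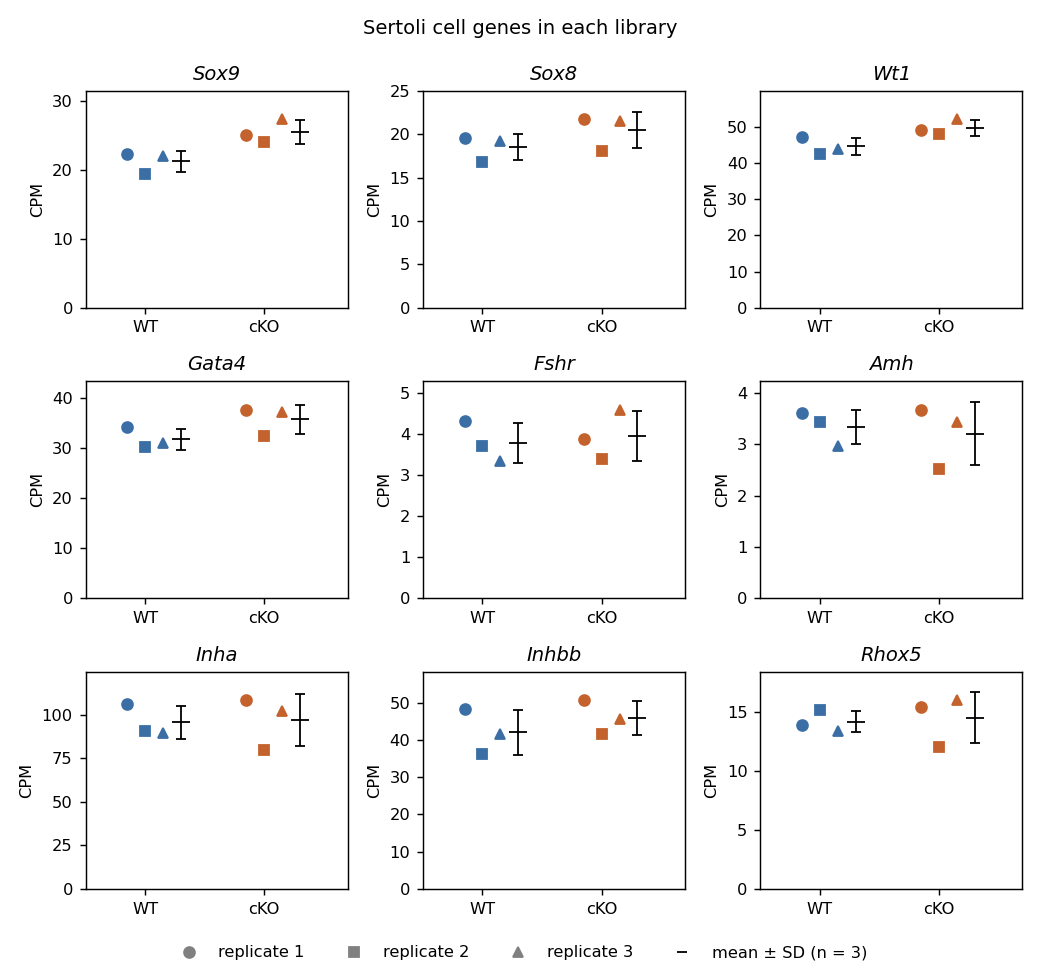
Level of each of the 9 genes in CPM (vertical axes, from 0) in the 3 WT and 3 cKO libraries, with symbols for the replicate number and mean ± SD beside them. Sox9 and Wt1 are the 2 panels in which every cKO library lies above every WT library.

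Sox9, the central transcription factor of Sertoli cell fate, lies on chromosome 11 (chr11:112782224-112787760, plus strand, GENCODE M21 on GRCm38, 3 merged exons). It had 22.2, 19.4 and 22.0 CPM in WT 1, 2 and 3 and 25.1, 24.0 and 27.3 CPM in cKO 1, 2 and 3. The groups did not overlap, with WT 2 lowest and cKO 3 highest. Its mean level in cKO thus came to 120.1% of that in WT (95% limits 106.0% and 136.0%), or 0.26 on the log2 scale (SE 0.082, edgeR adjusted p 0.288).

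Wt1, a zinc finger factor of chromosome 2 that maintains Sertoli cells after their specification, had 47.2, 42.4 and 43.9 CPM in the WT libraries. In the cKO libraries it had 49.1, 47.8 and 52.1 CPM. The lowest cKO value was thus just above the highest WT value. Its log2 fold change was 0.16 (SE 0.070, edgeR adjusted p 0.350), with limits of 100.3% and 124.1% of the WT level.

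Gata4, a zinc finger factor of chromosome 14 that is also expressed in Leydig cells, had 34.2, 30.2 and 31.0 CPM in WT and 37.7, 32.4 and 37.2 CPM in cKO. Here cKO 2 lay within the WT range. The difference was 0.17 on the log2 scale (SE 0.082, edgeR adjusted p 0.379). Sox8, on chromosome 17, had 19.6, 16.8 and 19.3 CPM in WT and 21.8, 18.1 and 21.6 CPM in cKO, again with cKO 2 inside the WT range. Its log2 fold change was 0.14 (SE 0.094, edgeR adjusted p 0.517). Exons of Sox8 overlap those of 2810468N07Rik on the other strand, but the reads were counted by strand and 5 of 7308 reads over Sox8 lay on the strand of that gene.

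Fshr, on the minus strand of chromosome 17, encodes the only receptor for FSH and was the least abundant of the 9 genes per length. It had 4.32, 3.71 and 3.35 CPM in WT and 3.89, 3.40 and 4.61 CPM in cKO. The groups overlapped over most of their range, with the lowest value in WT 3 and the highest in cKO 3. Its log2 fold change was 0.06 (SE 0.14, edgeR adjusted p 0.877). With 190 to 284 reads in a library, the 95% limits were 84.4% and 129.6% of the WT level.

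RefSeq promoter windows (GRCm38.p6) were found for 5 of the 9 genes. The RefSeq start coincides with that in GENCODE M21 for Sox8, Fshr and Inhbb, but lies 532 bases downstream of it for Inha and 50234 bases upstream of it for Rhox5. The 250 bases before the RefSeq start were searched on both strands for the E-box palindrome CACGTG, the nuclear receptor half-site AGGTCA, the GATA motif AGATAA, the cyclic AMP response element TGACGTCA and the SOX motif AACAATG. The E-box occurred once in Fshr, starting 61 bases before the start, and once in Sox8, starting 152 bases before it. The half-site AGGTCA occurred once in Inha, starting 69 bases before its RefSeq start, which lies within the GENCODE gene. Inhbb and Rhox5 held none of the 5 motifs. Of all 32851 windows of this length, 6.02% held CACGTG, 14.0% AGGTCA, 9.99% AGATAA, 1.55% TGACGTCA and 3.29% AACAATG. The Fshr and Sox8 windows are shown because upstream stimulatory factors, which bind this palindrome, are known regulators of Fshr in Sertoli cells. Capitals mark the palindrome, in windows chr17:89200676-89200925 and chr17:25570687-25570936, both on the minus strand.
Fshr: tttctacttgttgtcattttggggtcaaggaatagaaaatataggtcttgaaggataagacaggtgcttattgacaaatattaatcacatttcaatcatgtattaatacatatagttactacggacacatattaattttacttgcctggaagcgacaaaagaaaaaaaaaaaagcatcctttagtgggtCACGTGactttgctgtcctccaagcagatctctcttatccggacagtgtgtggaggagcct
Sox8: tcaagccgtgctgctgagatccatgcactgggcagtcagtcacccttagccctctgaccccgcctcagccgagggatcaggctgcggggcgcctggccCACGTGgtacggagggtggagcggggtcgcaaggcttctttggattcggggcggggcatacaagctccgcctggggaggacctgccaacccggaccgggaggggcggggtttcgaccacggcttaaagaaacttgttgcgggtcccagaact
The upstream stimulatory factor genes had log2 fold changes of 0.00 for Usf1 (edgeR adjusted p 0.996) and 0.12 for Usf2 (edgeR adjusted p 0.569), both with overlapping groups.

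Inha, on chromosome 1, encodes the alpha subunit that makes a dimer an inhibin and was the most abundant of the 9 genes per length. It had 106, 90.8 and 89.5 CPM in WT and 108, 80.0 and 102 CPM in cKO. Both the highest and the lowest value were cKO libraries, cKO 1 and cKO 2, so the WT values lay wholly inside the cKO range. The log2 fold change was 0.02 (SE 0.11, edgeR adjusted p 0.953), with limits of 86.1% and 119.3% of the WT level. Leydig cells also express Inha, so its level in whole testis is not that of Sertoli cells alone.

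Inhbb, also on chromosome 1, encodes the beta B subunit shared by inhibin B and activin B. Its levels were 48.3, 36.3 and 41.6 CPM in WT and 50.7, 41.6 and 45.5 CPM in cKO. The WT libraries spread by 14.3% (coefficient of variation) and the groups overlapped. The log2 fold change was 0.13 (SE 0.10, edgeR adjusted p 0.608). After correction for GC content and transcript length it was 0.00.

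Amh, on chromosome 10, had 3.61, 3.44 and 2.96 CPM in WT and 3.67, 2.52 and 3.42 CPM in cKO. Its lowest value was in cKO 2 and its highest in cKO 1. It was the only member with a value below 0, a log2 fold change of -0.05 (SE 0.15, edgeR adjusted p 0.912). The limits of 76.7% and 121.5% of the WT level were wide for the 141 to 268 reads behind each value.

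Rhox5, an X-linked homeobox gene, had 13.9, 15.2 and 13.4 CPM in WT and 15.5, 12.0 and 16.0 CPM in cKO. As with Inha, the cKO range enclosed the WT range. The log2 fold change was 0.04 (SE 0.11, edgeR adjusted p 0.914), with limits of 87.1% and 120.6% of the WT level. Of the sequence stretches of 31 bases in its transcripts, 0% occurred in transcripts of another gene, and among the 9 genes the highest such share was 1.12%, for Sox9.

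**Figure D2:**
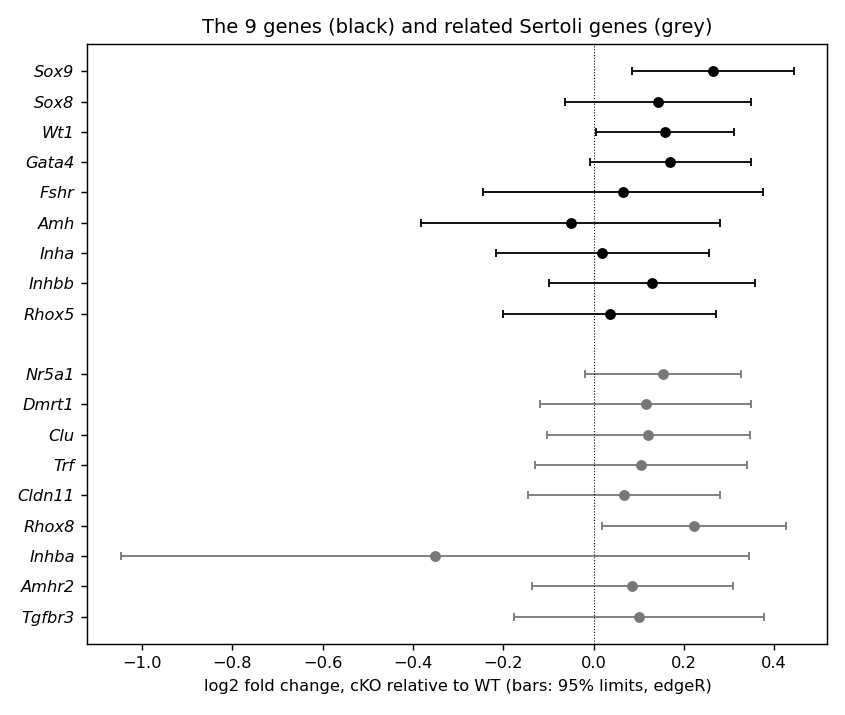
Log2 fold change of cKO relative to WT (horizontal axis) with 95% limits from edgeR for the 9 genes (black) and 9 related genes (grey). The limits of Sox9, Wt1 and Rhox8 lie above 0 before any adjustment for the number of genes tested.

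The libraries differed from one another in a shared way, as the plot of deviations by library shows. All 9 genes had their highest value in cKO 1 (5 genes) or cKO 3 (4 genes), and all 9 exceeded their own mean in both. WT 2 was the lowest library for Sox9, Sox8, Wt1, Gata4 and Inhbb, cKO 2 for Amh, Inha and Rhox5, and WT 3 for Fshr. The mean deviation over the 9 genes was 0.06, -0.11 and -0.10 on the log2 scale in WT 1, 2 and 3. It was 0.13, -0.13 and 0.15 in cKO 1, 2 and 3. The members diverged most in WT 2 and cKO 2. In cKO 2 Sox9 and Wt1 stood above their own means, at 0.05 and 0.03, while Amh, Inha and Rhox5 stood at -0.36, -0.26 and -0.25. In WT 2 Sox9 stood at -0.26, while Amh and Rhox5 stood at 0.08 and 0.09.

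**Figure D3:**
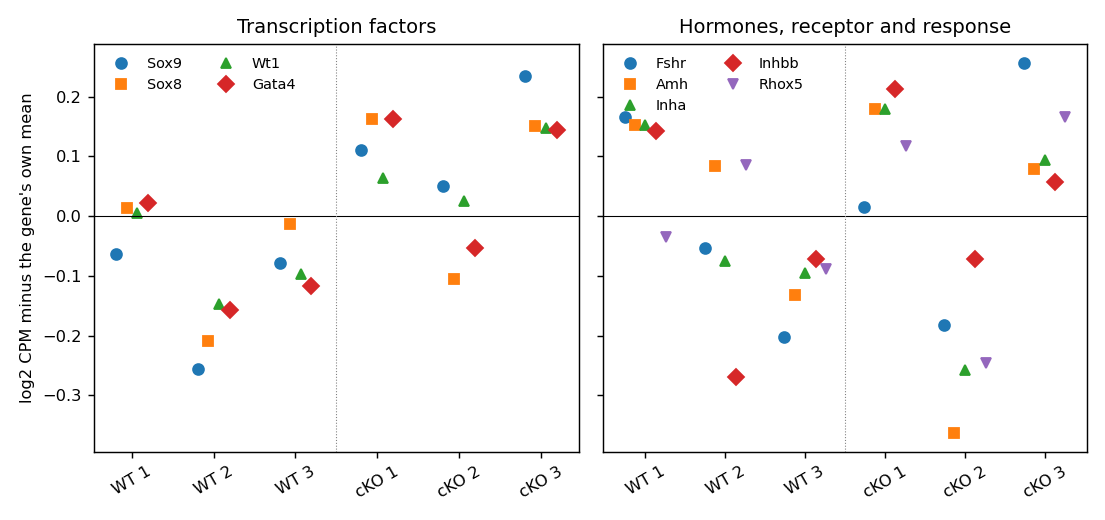
Deviation of log2 CPM from each gene's own mean over the 6 libraries (vertical axis) for each library (horizontal axis), transcription factors on the left and the other 5 genes on the right. The points of cKO 1 and cKO 3 all lie above 0, and those of cKO 2 spread from -0.36 to 0.05.

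Per kilobase of merged exons, the scale on which genes can be compared, Inha stood highest at 65.2 CPM per kilobase (mean of 6 libraries), followed by Rhox5 at 19.0. Inhbb (10.3), Gata4 (8.65), Wt1 (7.60), Sox8 (6.26) and Sox9 (5.65) followed. The ranges of each neighbouring pair among these 5 over the 6 libraries overlapped. Compared within each library, Inhbb, Gata4, Wt1 and Sox8 kept this order throughout. Sox8 exceeded Sox9 except in cKO 2, where they had 5.80 and 5.81. Amh at 1.96 and Fshr at 1.64 formed the lowest pair. Their ranges also overlapped, but Amh exceeded Fshr within each library. The libraries did not overlap between Inha and Rhox5, between Rhox5 and Inhbb or between Sox9 and Amh. Amhr2, the AMH receptor gene, had 118.6 CPM per kilobase, while Inhba, which encodes the beta A subunit, had 0.0609.

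**Figure D4:**
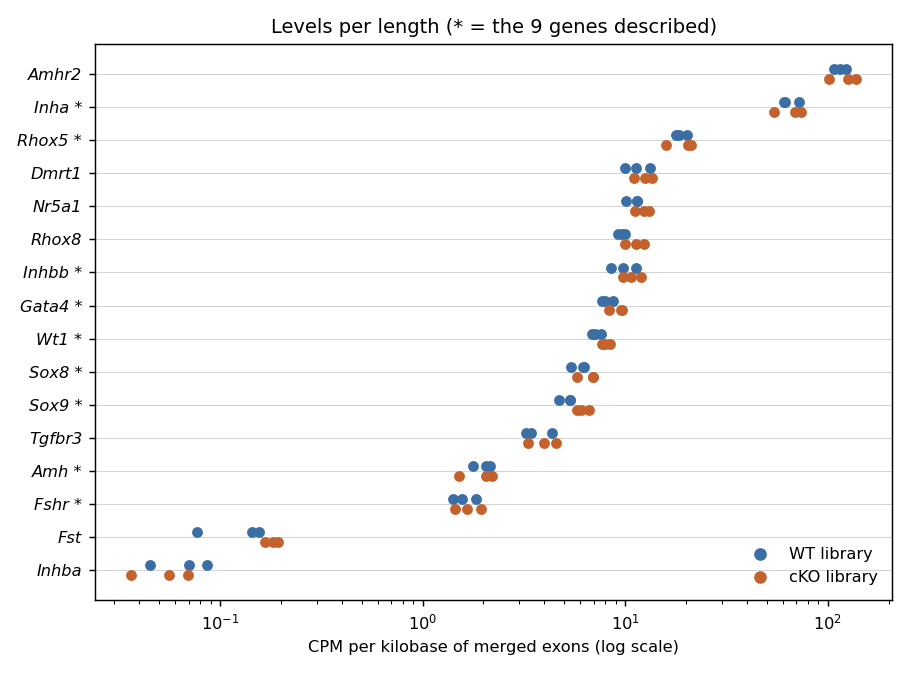
CPM per kilobase of merged exon length (horizontal log axis) in each WT and cKO library for the 9 genes (asterisks) and 7 related genes. Inha lies above the other 8 members in every library, and Amh and Fshr lie below them.

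Whole testis RNA cannot tell fewer Sertoli cells from less RNA per cell, so the 9 genes were also set against 23 products of Sertoli cells in the same library, such as clusterin and claudin 11. The mean log2 CPM of these products was 4.84 ± 0.0394 (SD, n = 3) in WT and 4.86 ± 0.112 (SD, n = 3) in cKO. Relative to it, Sox9 was higher in cKO by 0.25 on the log2 scale, Gata4 by 0.15 and Wt1 by 0.14, each without overlap. That is 3 of 9 genes, where 13.2% of all genes did not overlap on this scale in either direction and 4.76% were higher. A two-sided exact permutation test over the 6 libraries gave p = 0.1 for each of the 3, the smallest it can give, among 9 such comparisons. Against the median of the products in place of their mean, only Sox9 kept groups without overlap. The share of all genes was not computed for that setting. Sox8 and Inhbb differed by 0.13 and 0.12, Fshr by 0.05, Rhox5 by 0.01, Inha by 0.00 and Amh by -0.08, all with overlap (exact p from 0.2 to 1). Gata4 overlapped in CPM, and the mean of the products was 4.73 in cKO 2 against 4.93 and 4.92 in cKO 1 and 3. That mean weighs all products alike, Il1a with 3 to 17 reads in a library among them. Of the 23 products, 15 had a log2 fold change above 0 and 8 below, with values from -0.27 to 0.27. Whether their mean follows the number of Sertoli cells was not tested.

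**Figure D5:**
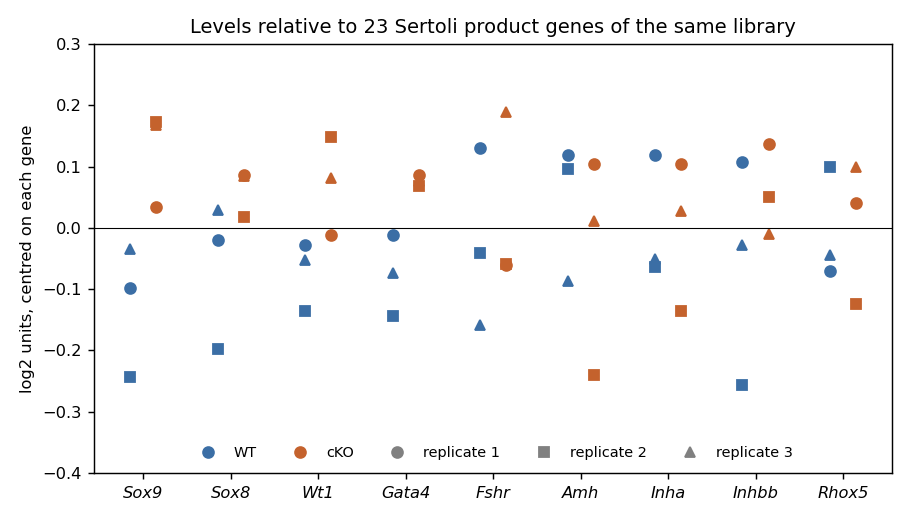
Log2 CPM of each gene minus the mean log2 CPM of the 23 Sertoli products in the same library, centred on each gene (vertical axis), for WT and cKO libraries. Sox9, Wt1 and Gata4 show every cKO point above every WT point.

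The other lists were read beside the 9 genes, and no gene of any of them passed the edgeR threshold. Markers of other cells were summed to see what moved with the groups. The summed level of 8 endothelial markers was 49.1 to 51.0 CPM in WT and 51.9 to 62.3 CPM in cKO, without overlap. No background share was computed for such sums. The endothelial median log2 fold change was 0.21, with 7 of 8 above 0. Cdh5, Vwf and Flt1 had an unadjusted p under 0.05 (log2 fold changes 0.25, 0.25 and 0.28), and 2 of the 8 did not overlap. Of all genes, 13.9% had an unadjusted edgeR p under 0.05 and 18.9% did not overlap, in either direction. The counts in this and the following lists stand beside these shares. The 8 spermatid markers summed to 15200.2 to 16563 CPM in WT and 12727.5 to 15796 CPM in cKO, with overlap. The spermatid median was -0.16, with 6 of 8 below 0. Tnp1, which encodes a transition protein of condensing chromatin, Izumo1, which encodes a sperm-egg fusion protein, and Spaca1 had an unadjusted p under 0.05, with log2 fold changes of -0.40, -0.26 and -0.18, and Izumo1 alone of the 8 did not overlap. Sums of Leydig (882.6 to 1046 and 806 to 1039 CPM), peritubular (483 to 511 and 482 to 499 CPM) and macrophage markers (116 to 130.4 and 117 to 129.8 CPM) overlapped, as did those of spermatogonia and spermatocytes. Within these sums, which follow their most abundant genes, single markers had values of both signs. The Leydig median was -0.14, with 6 of 8 below 0, and Hsd17b3, which makes testosterone, had -0.38 without overlap and Cyp11a1 -0.22, both at an unadjusted p under 0.05. The macrophage median was -0.17, with 6 of 8 below 0. Fcgr3, C1qa and C1qb had -0.34, -0.29 and -0.24 and Mrc1 had 0.25, all 4 at an unadjusted p under 0.05, and Fcgr3 and Mrc1 did not overlap. The peritubular median was -0.02, with Myh11 at 0.32 and Tagln at -0.20, both at an unadjusted p under 0.05. The lowest edgeR adjusted p among these markers was 0.276, and the markers were named after their values were seen. None of these markers was at 0 in all libraries. Their part in the values of the 9 genes was not tested.

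Of 13 further transcription factors of gonadal somatic cells, 12 were tested, 9 with a value above 0, and their median log2 fold change was 0.05, or 0.032 without WT 2, 0.085 without WT 1, 0.091 without cKO 2, 0.024 with library totals alone and 0.021 after the GC and length correction. Nr5a1, the nuclear receptor that acts with SOX9 and GATA4 on Amh, had 48.3, 43.0 and 48.6 CPM in WT and 55.5, 47.7 and 52.4 CPM in cKO. Its log2 fold change was 0.15 (SE 0.079, edgeR adjusted p 0.404). Dmrt1, which guards the male fate of Sertoli cells and also acts in germ cells, had 0.12 (edgeR adjusted p 0.664), and Etv5, a factor of the stem cell niche, 0.09 (edgeR adjusted p 0.629). Sry, the transient switch of the fetal gonad, had 0 to 2 reads in a library and was not tested.

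Of 25 Sertoli products, 23 were tested, 15 with a value above 0, with a median of 0.06. It was 0.018 without cKO 3, 0.030 without cKO 1, 0.034 without WT 2, 0.037 without WT 3, 0.10 without WT 1 and 0.15 without cKO 2. Clu, which encodes the secreted glycoprotein clusterin, had 1205, 981 and 1089 CPM in WT and 1329, 1007 and 1225 CPM in cKO, a log2 fold change of 0.12 (edgeR adjusted p 0.626). For Clu, cKO 1 and cKO 3 were the 2 highest libraries. Among the 9 genes, cKO 1 was in the top 2 for 8, cKO 3 for 6 and WT 1 for 4. WT 2 was lowest for Clu, as it was for 5 of the 9. Trf (transferrin, the iron carrier) had a log2 fold change of 0.10, Cldn11 (a protein of the blood-testis barrier) 0.07, Kitl (the ligand of KIT on spermatogonia) 0.06 and Gdnf (the stem cell growth factor) 0.13. Ctsl, a protease, and Aard had values of 0.05 and -0.04. The edgeR adjusted p of these 6 genes was at least 0.699. Without adjustment 2 genes had a p under 0.05, both higher: Espn, an actin-bundling protein of Sertoli cell junctions named after its value was seen (0.27, edgeR adjusted p 0.288), and Rhox8.

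In the FSH signalling list 23 of 25 genes were tested, 19 with a value above 0, with a median of 0.07. The median was 0.0059 after the correction for GC content and length and 0.042 without WT 2. The most abundant were Prkar1a and Prkar2a, regulatory subunits of the cyclic AMP-dependent kinase, with 0.01 and 0.04, and Crem, a cyclic AMP-responsive factor that acts mainly in spermatids, with -0.10. The edgeR adjusted p of these 3 genes was at least 0.551. Without adjustment 2 genes, chosen for naming only once their values were known, had a p under 0.05. Adcy9, an adenylyl cyclase, had a log2 fold change of 0.28 (edgeR adjusted p 0.306), and Jun, an immediate early gene, had -0.52 (edgeR adjusted p 0.276). Jun had 9.36, 13.8 and 13.4 CPM in WT and 8.73, 8.24 and 8.51 CPM in cKO, so 2 of the WT libraries stood apart from the other 4. Fshb, the hormone subunit made in the pituitary, had no read in any library.

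The inhibin, activin and AMH list holds partner subunits, receptors and signal transducers. Of its 25 genes 23 were tested, 19 with a value above 0, and the median was 0.10. It was 0.035 after the GC and length correction and 0.14 without cKO 1. Amhr2 had 248, 214 and 230.3 CPM in WT and 277, 204 and 254 CPM in cKO, a log2 fold change of 0.09 (edgeR adjusted p 0.748). Its highest libraries were cKO 1 and cKO 3, as for Clu, while cKO 2 was lowest. Tgfbr3, the inhibin co-receptor betaglycan, had 0.10 (edgeR adjusted p 0.763), and the follistatin gene Fst, which encodes an activin antagonist, had 0.53 (SE 0.25, edgeR adjusted p 0.368) at a mean of 0.577 CPM in WT and 0.833 CPM in cKO. Inhba had a log2 fold change of -0.35 (SE 0.32, edgeR adjusted p 0.656), and Inhbc had 0 to 3 reads in a library. Bmpr1a, a type I receptor for AMH, and Smad5, one of its transducers, had 0.02 and 0.17 (edgeR adjusted p 0.940 and 0.379). Smad3, a transducer of activin named after its value was seen, had 0.21 (edgeR adjusted p 0.323) and was the only gene of the list at an unadjusted p under 0.05.

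Of 13 genes of the androgen response, 12 were tested, 9 with a value above 0, and the median was 0.12. It was 0.061 without cKO 1, 0.073 without WT 2 and 0.070 after the GC and length correction. The coactivator genes Ncoa2, Ncoa3 and Ncoa4 had values of 0.29, 0.22 and 0.08 and the chaperone gene Fkbp5 had 0.11. The edgeR adjusted p of these 4 genes was 0.288, 0.310, 0.632 and 0.497. Ncoa2 and Ncoa3, the latter named after its value was seen, had an unadjusted p under 0.05. They were also the 2 of the 12 whose groups did not overlap, against 18.9% of all genes. The summed level of the 13 genes was 428 to 454 CPM in WT and 471 to 503 CPM in cKO, without overlap, as for the endothelial sum.

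The Rhox genes form an X-linked cluster of homeobox genes, of which 6 of 13 listed besides Rhox5 were tested. Rhox8, the other member prominent in Sertoli cells, had 12.1, 11.1 and 11.6 CPM in WT and 13.7, 12.0 and 14.9 CPM in cKO. Only cKO 2 lay within the WT range. Its log2 fold change was 0.22 (SE 0.093, edgeR adjusted p 0.332), beside 0.04 for Rhox5. Rhox13, which is expressed in germ cells, and Rhox11 had 0.05 and -0.15 (edgeR adjusted p 0.882 and 0.680). Rhox3a, Rhox4a and Rhox4b had no read in any library, and multicopy members of the cluster can lose reads that map to several places.

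The genes whose pattern over the 6 libraries was most like the mean of the 9 were sought among 16822 others with a mean of at least 1 CPM. Likeness was the root mean square difference of log2 deviations. The nearest were Rragd (0.0140), Cited2 (0.0189), Lgmn (0.0193), Mid1ip1 (0.0202) and Tmc6 (0.0213). Cited2, a transcriptional coregulator, had 30.7, 27.8 and 28.3 CPM in WT and 32.9, 27.6 and 32.5 CPM in cKO. Lgmn, which encodes the lysosomal protease legumain, had 55.6, 50.2 and 50.3 CPM in WT and 61.1, 49.1 and 60.0 CPM in cKO. For both, cKO 1, cKO 3 and WT 1 were the highest libraries, as for the mean of the 9, in which cKO 3 stood above cKO 1. Among the Sertoli products, Vim, Gstm6, Mro and Cldn11 ranked 22, 23, 26 and 29 by this measure, and Kitl, Defb45 and Cst12 ranked 10468, 14605 and 15605. With 6 libraries and shared depth scaling, such likeness is a description only.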

How the data were processed

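Total RNA of testes was sequenced as single-end reads of 75 bp, per the labels' protocols. The authors deposited raw counts per gene, without normalisation, in the layout of STAR's gene count output. STAR, HTSeq, DESeq2 and the build mm10 are named in the submitters' processing notes, without role, and the annotation release and read filters are not given in the sources used here. The lines that name no single gene held 14.8% to 16.7% of reads and were left out. Opposite-strand counts (96.0% to 96.2% of both strand columns) were used. GENCODE M21 matched 52093 of 53700 identifiers.

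The test was edgeR 4.0.16 in R 4.3.3 (TMM, filterByExpr with a minimum count of 10, quasi-likelihood F test without covariates, Benjamini-Hochberg over 21902 genes, threshold 0.05). Standard errors and 95% limits come from the F statistic. Log2 CPM used a prior count of 0.5. The labels call the replicates biological, and each was taken as a separate mouse. The 9 genes and the lists were chosen with earlier results of these data known. Named from each pathway list were genes past the threshold, the 3 most abundant tested genes and a set of fixed genes, plus the 5 genes of most similar pattern; marker lists of other cells are given by sums, medians and counts. A further listed gene is not reported here. Alternatives were RLE scaling, library totals, 2 other count filters, unstranded counts, a replicate block, robust estimation, DESeq2 1.42.0, a threshold of 0.1, a loess correction for GC content and length (span 0.3), each library left out and, for the relative levels, 2 other references. The procedure was tested on simulated counts. Of 200 genes changed by 0.5 on the log2 scale it recovered 45%, with 12 false among 102 calls. Of 200 genes changed by 1 it recovered 83.5%, with 14 false among 181 calls. With no gene changed it made 0 calls, and 4.92% of genes had an unadjusted edgeR p under 0.05, against 13.9% in the data. The counts of each gene were drawn independently, so deviations that genes share within a library were not simulated. Changes as small as those of the 9 genes were not simulated.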

Additional observations from a re-analysis of the deposited data

How the results depend on the processing

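No member was called under any of the 16 alternatives, fits without a library counted as 6 of them. Of 135 values, 123 kept direction and 12 turned, each in a gene near 0. Inha was -0.0061 with library totals alone. Without single libraries the log2 fold change ranged from -0.070 to 0.14 for Inha, -0.054 to 0.17 for Fshr, -0.16 to 0.093 for Amh and -0.039 to 0.15 for Rhox5. The ranges were 0.075 to 0.22 for Sox8, 0.12 to 0.20 for Wt1, 0.13 to 0.24 for Gata4 and 0.032 to 0.24 for Inhbb. The GC and length correction gave 0.093 for Gata4, 8.8e-05 for Inhbb and 0.15 for Rhox5. The median of the 9 genes ranged from 0.075 to 0.19 without single libraries, and list medians that depend on a setting are given beside their counts. Sox9 stayed between 0.20 and 0.30 over all 15 fits, with adjusted p from 0.0914 (replicate block) to 0.730.

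The number of all genes past the threshold, 4 (2 higher, 2 lower), was 757 without a count filter, 2 with unstranded counts, 49 with the replicate block and 209 with DESeq2, and 1 to 628 when a library was left out, the highest without cKO replicate 1 and 116 without WT replicate 1. RLE scaling gave 4 higher and 2 lower, library totals 2 and 1. The cause was not tested. Relative to the Sertoli products, 3 members did not overlap, 1 against their median and 3 to 4 when a library was left out. The share of all genes, 13.2%, was computed for the main setting alone. With fewer libraries any gene is more likely not to overlap, so the counts of 3 to 4 cannot be read against that share.

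The deviations of same-numbered libraries had correlations across genes of 0.34 and 0.26 for numbers 1 and 2, but -0.04 for number 3. Of the 6 libraries, 4 correlated best with their own number. The labels do not say that the numbers mark pairs, so the main test had no block. Whether they mark pairs was not tested. The replicate block changed no call of a member.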

Other observations

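Ratios between genes within a library, some of them between a member and another gene, were taken per kilobase. They remove library scaling, but not effects of GC content or length that differ between libraries. Inha exceeded Inhbb by 6.35, 7.21 and 6.21 times in WT and by 6.16, 5.54 and 6.47 times in cKO, with overlap. The ratio of Sox9 to Sox8 was 0.853, 0.872 and 0.861 in WT and 0.868, 1.00 and 0.954 in cKO, also with overlap, and its spread was 0.00948 (SD, n = 3) in WT against 0.0680 (SD, n = 3) in cKO. Rhox5 exceeded its neighbour Rhox8 by 1.84, 2.18 and 1.85 times in WT and by 1.81, 1.60 and 1.72 times in cKO, without overlap. It was the only one of 6 ratios computed whose groups did not overlap, and it was not tested. The GC and length correction moved the log2 fold change of Rhox5 from 0.04 to 0.15, and the ratio was not recomputed with it.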
